A study of Arabidopsis thaliana with 24 samples.

Results

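Jasmonates are lipid hormones of plants, and 33 Arabidopsis thaliana genes for their synthesis, perception and response were followed here through the first divisions of the embryo. The set was listed by locus from the pathway, with earlier results of these data known: 13 genes of synthesis and activation (the lipoxygenase genes LOX2, LOX3, LOX4 and LOX6, then AOS, AOC1 to AOC4, OPR3, OPCL1, ACX1 and JAR1), the receptor COI1 (AT2G39940), the 12 repressors JAZ1 to JAZ12, the transcription factors MYC2 (AT1G32640), MYC3 (AT5G46760) and MYC4 (AT4G17880), the corepressors NINJA (AT4G28910) and TPL (AT1G15750), and the response genes VSP1 (AT5G24780) and VSP2 (AT5G24770). They are 33 of the 32399 loci in the expression files. All embryos were hybrids between the accessions Col and Ler, made in both directions, from plants grown in a greenhouse under long days. There were 8 groups of 3 libraries. At the 2-celled stage the apical cell and the basal cell were sampled, at the 32-celled stage the embryo proper and the suspensor, and each came from the cross of a Ler mother with Col pollen and from that of a Col mother with Ler pollen. The labels name no treatment, mutation or transgene. The labels call the replicates independent but do not say how many embryos or plants each holds, so the p-values below measure the spread between libraries. In the main fit each gene has a single estimate of that spread, shared by all 8 groups, whichever cell types are compared. The series text names the early stage as 1-celled where the sample labels say 2-celled.

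In wounded leaves, lipoxygenases (LOX) act on linolenic acid in the plastid, allene oxide synthase (AOS) and allene oxide cyclases (AOC) build the ring of the precursor, OPR3 reduces it in the peroxisome, and OPCL1 and ACX1 feed it into beta-oxidation. JAR1 joins the product to isoleucine, and this conjugate lets COI1, the F-box subunit of a ubiquitin ligase, bind JAZ repressors and send them to degradation. JAZ proteins otherwise hold MYC factors silent through the adaptor NINJA and the corepressor TPL, and most JAZ and several LOX and AOC genes are themselves transcribed on MYC activation, so that their mRNA is a common readout of the pathway.

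MYC factors bind the G-box CACGTG and the related CACATG, so the members' promoters were searched for them. The window ran from 250 bases before to 50 bases after the annotated gene start (RefSeq annotation of TAIR10.1, 300 bases), on both strands. CACGTG reads the same on both strands, CACATG appears as CATGTG on the other, and no member held both. CACGTG was found in 6 of the 32 members searched (AOS, ACX1, JAZ2, JAZ3, JAZ7 and JAZ8), against 7.68% of 27443 protein-coding promoters of that length. CACATG was found in 6 (LOX2, LOX3, AOC4, JAR1, JAZ9 and JAZ10), against 12.9%, and 12 members held either, against 19.3%. The windows of 3 genes that were called between embryo proper and suspensor and hold a motif are shown as examples. These are ACX1 and LOX3, lower in the embryo proper, and JAZ3, higher there. JAZ2, also called and holding CACGTG, is not shown. A motif was also held by 5 of the 11 tested members not called in that contrast, so the examples tie no motif to a call. Capitals mark a motif. ACX1 (chr4:9428846-9429145, minus strand) holds CACGTG 92 bases before the start, JAZ3 (chr3:6119457-6119756, plus strand) holds it at 140 and 82 bases, and LOX3 (chr1:5977073-5977372, plus strand) holds CACATG at 65 bases.
ACX1: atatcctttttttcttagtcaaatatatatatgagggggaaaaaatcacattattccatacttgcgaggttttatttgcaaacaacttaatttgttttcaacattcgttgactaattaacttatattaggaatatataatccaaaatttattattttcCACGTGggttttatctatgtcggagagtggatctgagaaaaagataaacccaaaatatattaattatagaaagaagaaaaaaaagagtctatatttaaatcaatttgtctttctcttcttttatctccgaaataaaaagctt
JAZ3: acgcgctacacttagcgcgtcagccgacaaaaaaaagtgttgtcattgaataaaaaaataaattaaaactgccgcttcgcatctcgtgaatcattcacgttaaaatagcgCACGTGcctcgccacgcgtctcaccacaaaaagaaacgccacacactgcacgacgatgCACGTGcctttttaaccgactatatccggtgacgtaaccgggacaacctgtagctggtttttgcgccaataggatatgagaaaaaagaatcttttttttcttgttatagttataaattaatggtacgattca
LOX3: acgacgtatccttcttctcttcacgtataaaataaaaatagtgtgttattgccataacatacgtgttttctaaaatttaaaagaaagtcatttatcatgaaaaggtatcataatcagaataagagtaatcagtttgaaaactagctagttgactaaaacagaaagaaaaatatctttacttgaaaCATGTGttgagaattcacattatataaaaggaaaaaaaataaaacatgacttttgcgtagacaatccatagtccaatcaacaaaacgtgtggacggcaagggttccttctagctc
The matches describe letters and do not show binding.

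Levels are FPKM (fragments scaled to transcript length and to the mapped fragments of the library), which can be compared between genes, and the read depth of the libraries is unknown. A library listed 12611 to 15366 loci at 1 FPKM or more. Summed FPKM was concentrated in few loci in the suspensor, where the top 10 held 16.1% to 26.3%, against 4.32% to 6.73% in the other 18 libraries. The lineage labels were checked against WOX8 and WOX9, homeobox genes of the basal lineage, which were both lower in the apical than the basal cell and in embryo proper than suspensor libraries, and against WOX2, DRN, ATML1 and PDF1 of the apical lineage, of which 4 of 4 were higher in embryo proper than suspensor libraries and 1 of 4 (DRN) in the apical than the basal cell. PDF1 was at 479 to 2159 FPKM in the suspensor, 3729 to 5199 in the embryo proper and 0 to 30.7 in the basal cell. ATML1 was at 24.9 to 59.9 in the suspensor and 61.9 to 80.0 in the embryo proper. WOX2 and DRN were at most 9.84 and 3.68 in the suspensor. Carry-over of RNA between the 2 parts of the embryo was not tested. All values are whole-sample measurements, so fewer cells of a type and less RNA per cell cannot be told apart.

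Of the 33 genes, 25 reached 1 FPKM in at least 3 libraries and were tested. AOC1 (AT3G25760) and JAZ4 (AT1G48500) were listed at 0 in all 24 libraries. The other 6 untested genes were at 0 in most libraries and reached at most 0.24 FPKM for AOC2 (AT3G25770), 1.83 for LOX2 (AT3G45140), 1.89 for LOX6 (AT1G67560), 1.05 for JAZ6 (AT1G72450), 7.87 for JAZ8 (AT1G30135) and 3.09 for JAZ9 (AT1G70700). JAZ7 (AT2G34600) was tested and called in no contrast, reaching 2.44 FPKM in 1 apical cell library, 1.12 in the basal cell, 0.09 in the embryo proper and 0.08 in the suspensor. A listed 0 may be a failed estimate, so single library values are given for genes with zeros. ACX1, OPCL1, JAZ2, JAZ10, JAZ12, NINJA and TPL were at 1 FPKM or more in every library, and JAZ11 in all but suspensor Ler 2. In the heat map these rows are filled but for JAZ11 in suspensor Ler 2, while JAZ1 is bright in all 6 suspensor columns. LOX3 is fainter there, at 2.56 to 12.5 FPKM, and AOC3 and JAZ5 are at 0 in suspensor Col 2.

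**Figure D1:**
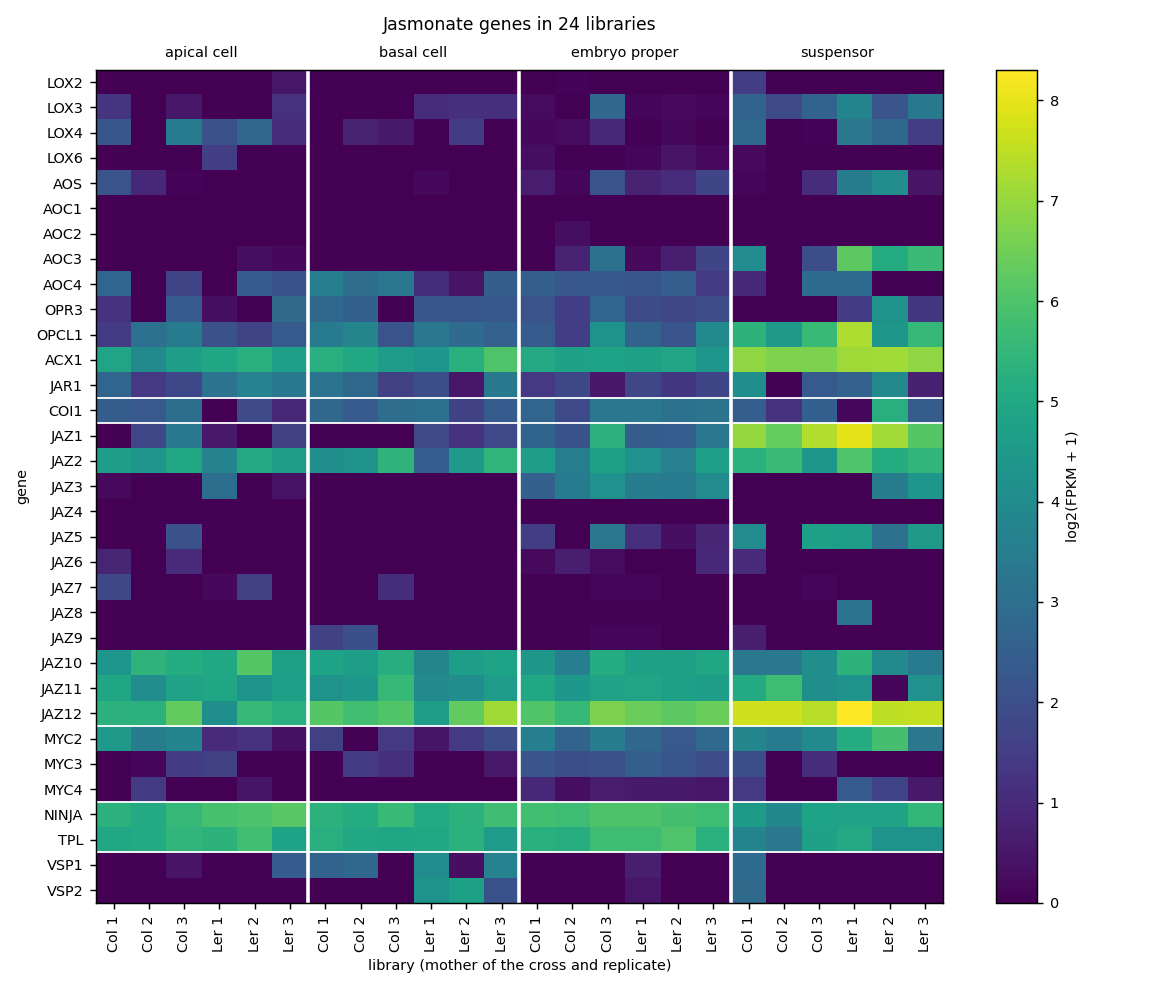
Level of the 33 jasmonate genes (rows, in order of role, with white lines between roles) in the 24 libraries (columns, grouped by cell type), as log2(FPKM + 1) on the colour scale. JAZ1, JAZ12, ACX1 and OPCL1 are brightest in the 6 suspensor libraries, and AOC1 and JAZ4 are at 0 throughout.

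The suspensor, the file of cells that anchors and feeds the embryo, held more mRNA of several jasmonate synthesis genes and JAZ repressors than the embryo proper, and less of the corepressors. Of the 25 genes tested, 10 were lower in the embryo proper (LOX3, LOX4, AOC3, OPCL1, ACX1, JAZ1, JAZ2, JAZ5, JAZ12 and MYC2) and 4 higher (JAZ3, MYC3, NINJA and TPL). The same test called 50.9% of all 18206 genes, 22.4% lower and 28.5% higher, so that 14 of 25 is close to the share of all genes. The median log2 difference of the 25 was -0.39, and that of all genes was 0.12.

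Among the synthesis genes, 5 of the 9 tested fell in the embryo proper and 0 rose. ACX1 (AT4G16760), the acyl-CoA oxidase that opens beta-oxidation of the precursor, ranged from 19.8 FPKM over a median of 26.8 to 31.5 in the 6 embryo proper libraries. In the suspensor it ranged from 100.4 over 121 to 143 (log2 difference of FPKM + 1 -2.15, SE 0.24, limma adjusted p = 8.01e-08). The 2 sets of libraries did not overlap. OPCL1 (AT1G20510), which activates the precursor with coenzyme A, ranged from 1.89 over 4.71 to 18 in the embryo proper and from 19.9 over 43.0 to 153 in the suspensor, again without overlap (log2 difference -2.62, SE 0.52, limma adjusted p = 2.06e-04).

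LOX3 (AT1G17420) was between 0.01 and 0.19 FPKM in 5 embryo proper libraries and at 5.68 in the sixth, Col mother replicate 3. In the suspensor it ran from 2.56 over 5.30 to 12.5, so that only that library reached into the suspensor range (log2 difference -2.17, SE 0.41, limma adjusted p = 1.28e-04). AOC3 (AT3G25780), the cyclase that sets the geometry of the ring, was at 0, 0.73 and 7.66 in the embryo proper of the Col mother and at 0.17, 0.62 and 2.31 in that of the Ler mother. In the suspensor it was at 15.2, 0 and 2.95 with a Col mother and at 73.0, 33.9 and 49.2 with a Ler mother. The Ler suspensors stood above every embryo proper library and the Col suspensors overlapped them, and the log2 difference of -2.74 (SE 0.53, limma adjusted p = 1.54e-04) was -4.78 within the Ler cross and -0.70, not called, within the Col cross (limma adjusted p = 1.87e-05 and 0.579). AOC3 lies in tandem with AOC1 and AOC2 on chromosome 3 (chr3:9409160-9411090 for AOC3), but its transcripts share 1.49% of their 50-base words with AOC1.

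LOX4 (AT1G72520) was at most 0.92 FPKM in the embryo proper and at 6.04, 0 and 0.06 in the Col and 8.91, 5.78 and 1.86 in the Ler suspensors (log2 difference -1.49, SE 0.54, limma adjusted p = 0.0251). The groups overlapped, and the call was lost without suspensor Col 1, suspensor Ler 1 or embryo proper Col 1 (limma adjusted p = 0.0943, 0.0627 and 0.0524). A pseudocount of 0.1 also ended the LOX4 call (limma adjusted p = 0.0573). So did leaving out the 4 libraries whose protocol text allows a second library kit (limma adjusted p = 0.0772). The other 4 tested synthesis genes were not called: AOS (AT5G42650), AOC4 (AT1G13280), OPR3 (AT2G06050) and the conjugating enzyme JAR1 (AT2G46370) had log2 differences between -0.87 and 1.07 (limma adjusted p from 0.150 to 0.483). OPR3 was at 0 in the 3 Col suspensors and at 1.73, 17.8 and 1.53 in the Ler suspensors, and at 1.84 to 5.6 in the embryo proper.

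JAZ1 (AT1G19180), the repressor first identified as a COI1 target, showed the widest gap of the 25 genes. It was at 5.38, 3.22 and 39.8 FPKM in the embryo proper of the Col mother and 4.45, 4.61 and 8.68 in that of the Ler mother. The suspensors stood at 127, 81.0 and 163 with a Col mother and 251, 142 and 68.9 with a Ler mother. No embryo proper library reached the lowest suspensor (log2 difference -3.94, SE 0.55, limma adjusted p = 2.51e-06), and the gap was called within each cross (-3.54 and -4.35, limma adjusted p = 0.00666 and 1.87e-04).

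JAZ12 (AT5G20900), the most abundant member in every cell type except the apical cell, ranged from 46.1 over 78.9 to 102 FPKM in the embryo proper and from 171 over 197 to 316 in the suspensor, without overlap (log2 difference -1.47, SE 0.33, limma adjusted p = 6.37e-04). JAZ5 (AT1G17380) was at 1.94, 0 and 8.88 in the Col and 1.23, 0.27 and 0.87 in the Ler embryo proper, against 15.1, 0 and 25.2 in the Col and 24.3, 7.15 and 21.1 in the Ler suspensors (log2 difference -2.27, SE 0.63, limma adjusted p = 0.00464). Suspensor Col 2, at 0, made the groups overlap, and within the Col cross JAZ5 was not called (limma adjusted p = 0.401). JAZ2 (AT1G74950) differed least of the 4, at 10.9 to 25.6 against 20.3 to 63.8 (log2 difference -1.10, SE 0.41, limma adjusted p = 0.0278), and its call was lost on leaving out any 1 of 5 libraries (embryo proper Ler 2 or Col 2, suspensor Col 1, Col 2 or Ler 1; limma adjusted p from 0.0516 to 0.0831).

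JAZ3 (AT3G17860) went the other way. It was at 4.88, 9.79 and 17.3 FPKM in the Col and 10.5, 9.45 and 15.1 in the Ler embryo proper, while 4 of the 6 suspensors listed it at 0 and the other two, Ler 2 and Ler 3, had 10.2 and 19.6 (log2 difference 2.21, SE 0.56, limma adjusted p = 0.00227). The difference was called within the Col cross and not within the Ler cross (limma adjusted p = 2.28e-05 and 0.487). JAZ10 (AT5G13220) and JAZ11 (AT3G43440) had medians of 25.5 and 26.1 FPKM in the embryo proper and 12.4 and 17.9 in the suspensor and were not called (limma adjusted p = 0.129 and 0.188).

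The MYC factors split. MYC2, the principal activator of the wound response in leaves, ranged from 3.97 over 5.87 to 11.0 in the embryo proper and from 8.71 over 13.5 to 56.5 in the suspensor, with overlap (log2 difference -1.29, SE 0.42, limma adjusted p = 0.0142). Within the Col cross the difference was -0.45 and not called (limma adjusted p = 0.528). Nearly all exonic bases of MYC2 are shared with a locus on the opposite strand (values given below), which limits every comparison of MYC2. MYC3, its close relative, was at 2.92 to 4.74 in all 6 embryo proper libraries and at 2.99, 0 and 1.06 in the Col and 0, 0 and 0.02 in the Ler suspensors (log2 difference 1.65, SE 0.37, limma adjusted p = 8.17e-04). Only suspensor Col 1 reached the embryo proper range. Within the Col cross alone LOX3, LOX4 and MYC3 were not called (limma adjusted p = 0.105, 0.673 and 0.168), JAZ12 was not called within the Ler cross (0.0663), and JAZ2 within neither (0.168 and 0.129).

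NINJA and TPL, which carry the repression that JAZ proteins impose, were higher in the embryo proper without overlap between libraries. NINJA was at 56.7 ± 4.78 FPKM (SD, n = 6) against 26.7 ± 10 in the suspensor (log2 difference 1.13, SE 0.20, limma adjusted p = 5.24e-05). TPL was at 46.6 ± 11.0 against 19.1 ± 8.35 (log2 difference 1.33, SE 0.26, limma adjusted p = 1.64e-04). COI1 was not called, at 6.83 ± 2.39 in the embryo proper and from 0.13 to 36.0 in the suspensor (limma adjusted p = 0.462). VSP1 and VSP2, which encode vegetative storage proteins and rise in wounded leaves, were at 0 in 5 of the 6 suspensors and at 6.44 and 6.26 in suspensor Col 1, and were not called (limma adjusted p = 0.661 and 0.476).

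**Figure D2:**
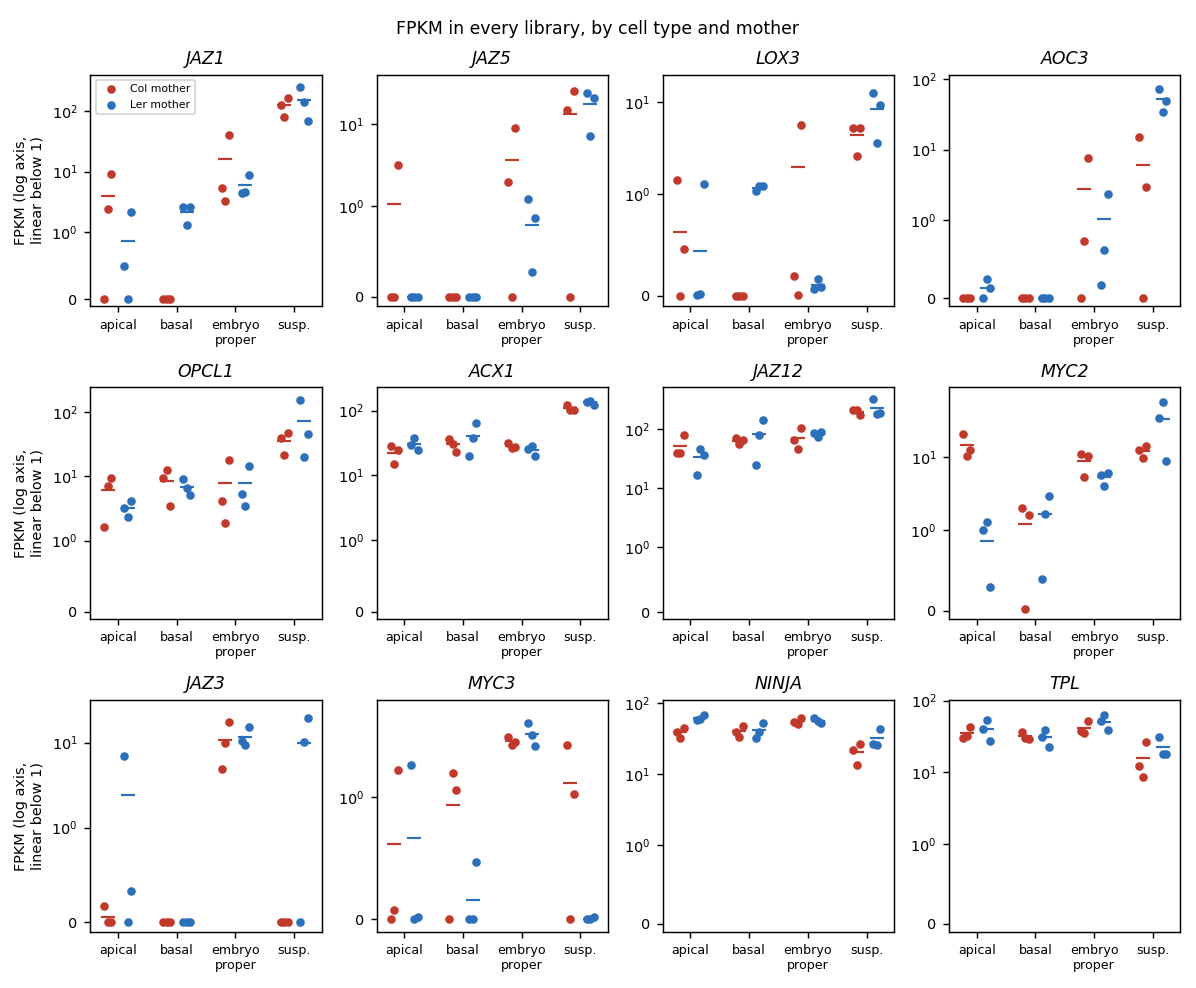
FPKM of 12 jasmonate genes in every library (y axis, logarithmic above 1 and linear below), by cell type (x axis) and mother of the cross (colour), with a bar at the mean of 3 libraries. The 6 suspensor libraries of JAZ1 lie between 68.9 and 251, above every other library, while NINJA and TPL are lower in the suspensor than in the embryo proper.

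Genes of the same list also differed between the suspensor and its precursor, the basal cell. Of the 25 tested, 10 were higher in the suspensor (LOX3, AOS, AOC3, OPCL1, ACX1, JAZ1, JAZ5, JAZ12, MYC2 and MYC4) and 4 lower (NINJA, TPL, VSP1 and VSP2). The test called 44.9% of all genes, 18.9% higher and 26.0% lower. The median log2 difference was 0.97 over the 25 and -0.15 over all genes. This comparison shares the suspensor libraries with the one above, so that the lists of genes are not independent of each other.

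JAZ1 was listed at 0 in the 3 basal cell libraries of the Col mother and at 2.6, 1.31 and 2.59 FPKM in those of the Ler mother, against 68.9 to 251 in the suspensor (log2 difference of FPKM + 1 6.18, SE 0.55, limma adjusted p = 4.89e-09). MYC2 rose from 0.02 to 2.91 in the basal cell to 8.71 to 56.5 in the suspensor, without overlap (log2 difference 3.09, SE 0.42, limma adjusted p = 3.25e-06). LOX3 was at 0 in the Col and 1.08, 1.22 and 1.21 in the Ler basal cells, all below the lowest suspensor at 2.56 (log2 difference 2.18, SE 0.41, limma adjusted p = 1.53e-04). These 3 differences were called within each cross.

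ACX1, OPCL1 and JAZ12 started from a level already present in the basal cell. ACX1 was at 35.2 ± 15.8 FPKM (SD, n = 6) there and 121 ± 17.1 in the suspensor (log2 difference 1.84, SE 0.24, limma adjusted p = 1.24e-06). OPCL1 ran from 3.44 over 7.83 to 12.7 in the basal cell, below the lowest suspensor at 19.9 (log2 difference 2.41, SE 0.52, limma adjusted p = 6.02e-04). JAZ12 was at 71.7 ± 38.2 against 211 ± 53.2, its highest basal cell at 140 and its lowest suspensor at 171 (log2 difference 1.69, SE 0.33, limma adjusted p = 1.94e-04). For all 3 genes the libraries of the cell types were separate.

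AOC3 and JAZ5 were listed at 0 in all 6 basal cell libraries and in suspensor Col 2, and above 0 in the other 5 suspensors (log2 differences of FPKM + 1 3.83 and 3.48, SE 0.53 and 0.63, limma adjusted p = 3.42e-06 and 1.03e-04). Neither was called within the Col cross (limma adjusted p = 0.0998 and 0.0602). MYC4 was likewise at 0 in every basal cell and in suspensors Col 2 and Col 3, at 1.61 in Col 1 and at 4.11, 2.16 and 0.47 in the Ler suspensors (limma adjusted p = 0.0148, and 0.052 without suspensor Col 1). AOS was at most 0.14 in the basal cell and at 0.07, 0.02 and 1.08 in the Col against 10.5, 15.7 and 0.35 in the Ler suspensors (limma adjusted p = 0.0156, and 0.0526 without suspensor Ler 2). The basal cell and suspensor libraries of AOS overlapped. For 4 libraries (basal cell Ler 2, Ler 3 and Col 3, and suspensor Ler 1) the protocol text allows a second library kit, and without them OPCL1, MYC4, AOS and NINJA were not called between suspensor and basal cell (limma adjusted p = 0.0545, 0.145, 0.174 and 0.240).

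NINJA, at 41.0 ± 7.92 FPKM in the basal cell and 26.7 ± 10 in the suspensor (n = 6 each), fell by 0.66 on the log2 scale (limma adjusted p = 0.00988), and TPL, at 31.3 ± 5.64 and 19.1 ± 8.35, fell by 0.78 (limma adjusted p = 0.0170, and 0.055 without suspensor Col 2). Both groups overlapped, and neither gene was called within the Ler cross (limma adjusted p = 0.342 and 0.363). VSP1 was at 5.25, 6.05 and 0 in the Col and 15.5, 0.27 and 11.9 in the Ler basal cells, and fell to 0 in 5 suspensors (log2 difference -1.77, SE 0.63, limma adjusted p = 0.0247). Leaving out 1 of 6 libraries (basal cell Ler 1, Ler 3, Col 1 or Col 2, suspensor Col 2 or Col 3) ended the VSP1 call, with limma adjusted p from 0.0645 to 0.0761. VSP2, with 0 in the Col and 18.3, 25.2 and 3.28 in the Ler basal cells, was lower in the suspensor overall (log2 difference -1.37, SE 0.42, limma adjusted p = 0.0114) but 0.95 higher, and not called, within the Col cross (limma adjusted p = 0.230).

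**Figure D3:**
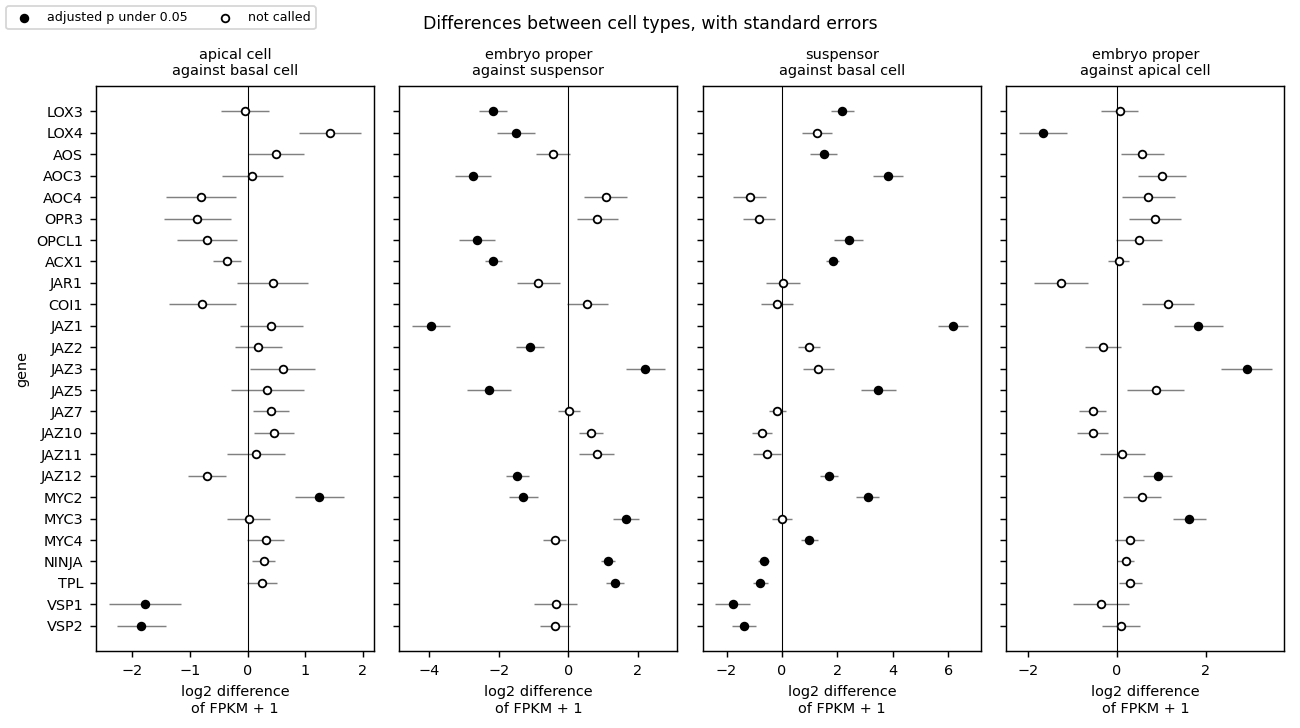
Log2 difference of FPKM + 1 (x axis) with its standard error (grey line) for the 25 tested jasmonate genes (y axis) in 4 comparisons of cell types, filled where the limma adjusted p was under 0.05. JAZ1 lies at -3.94 in the embryo proper against the suspensor and at 6.18 in the suspensor against the basal cell.

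Touch and early wounding genes were higher in the same suspensor libraries. Of a list of 10 such genes, 9 were below their suspensor level in the embryo proper and 0 above it, where 22.4% of all genes were lower. Against the basal cell 9 were higher in the suspensor and 0 lower, where 18.9% of all genes were higher. Their summed level was 1300 to 2930 FPKM in the suspensor, 379 to 864 in the embryo proper, 260 to 826 in the basal cell and 269 to 1280 in the apical cell. RBOHD, the oxidase of the wound burst, was at 11.2 to 54.6 in the suspensor and at most 4.28 elsewhere. Their part in the jasmonate differences was not tested. Endosperm markers (12 genes) summed to 91.2 to 275 FPKM in the suspensor, 64.9 to 422 in the basal cell, 1.61 to 17.9 in the embryo proper and 6.85 to 42.6 in the apical cell. In the suspensor, basal cell and apical cell most of this was the sucrose carrier SUC5, which was at 0.78 to 2.15 FPKM in the embryo proper. AGL62 was at 0.9 to 30.5 in the suspensor, 0 to 13.6 in the basal cell and at most 2.18 elsewhere. ESF1.2 was at 0.99 to 63.6 in the suspensor, 0 to 32.6 in the basal cell, 0 to 12.5 in the embryo proper and 0 in the apical cell. PHE1, ZOU and ESF1.1 were at 0 in all 24 libraries, and the remaining endosperm markers reached at most 7.93. Seed coat markers (10 genes) summed to 3.15 to 48.1 FPKM in the suspensor, 1.75 to 46.8 in the basal cell, 12.6 to 27.5 in the embryo proper and at most 0.81 in the apical cell. In the embryo proper most of this was STK, at 12.23 to 27.47 FPKM, and each other seed coat marker reached at most 0.72. STK was at 0.74 to 13.88 in the suspensor and at most 3.08 in the basal cell. The pigment gene CHS ranged from 0 to 26.17 in the suspensor. DFR and LDOX ranged from 0 to 18.23 and from 0 to 16.46 in the basal cell. Of the 7 tested endosperm markers, limma called 3 lower (SUC5, ESF1.2 and AGL62) and 0 higher in the embryo proper against the suspensor, 2 lower and 1 higher in the apical against the basal cell, and 0 between suspensor and basal cell, with 1 at an unadjusted p under 0.05. Of the 5 tested seed coat markers, STK was higher in the suspensor than the basal cell and higher again in the embryo proper, and 2 were lower in the apical than the basal cell. The part of these cell types in the jasmonate differences was not tested.

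Between the daughters of the first division few jasmonate genes differed. The apical cell, founder of the embryo proper, held more MYC2 and less VSP1 and VSP2 than the basal cell, and the other 22 genes tested were not called, against 24% of all genes called (11.8% higher, 12.2% lower). The median log2 difference was 0.18 over the 25 and 0.03 over all genes. VSP2 was at 0 or 0.02 FPKM in every apical cell and, in the basal cell, above 0 only with a Ler mother (log2 difference -1.84, SE 0.42, limma adjusted p = 0.00275). VSP1 was at 0, 0 and 0.36 in the Col and 0, 0 and 4.35 in the Ler apical cells, overlapping the basal cells (log2 difference -1.78, SE 0.63, limma adjusted p = 0.0419).

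The MYC2 call rested on 1 cross. Col apical cells had 20.9, 10.4 and 12.5 FPKM and Ler apical cells 1.01, 1.28 and 0.29, against 0.02 to 2.91 in the basal cells of both crosses (log2 difference 1.24, SE 0.42, limma adjusted p = 0.0370). Within the Ler cross the difference was -0.43, in the opposite direction and not called (limma adjusted p = 0.756). The call of MYC2 was lost without any 1 of 7 libraries (apical cell Ler 1, Ler 2, Col 1 or Col 3, basal cell Ler 1, Ler 2 or Col 2; limma adjusted p from 0.0544 to 0.111). That of VSP1 was lost without any 1 of 14 (each of the apical cells except Ler 3, basal cell Ler 1, Ler 3, Col 1 or Col 2, and each embryo proper except Ler 1, with limma adjusted p from 0.0503 to 0.112). VSP1 was called in neither cross alone (limma adjusted p = 0.181 for Col and 0.219 for Ler). Library weights, no filter and a fit of only these cell types also ended its call (limma adjusted p = 0.0687, 0.0759 and 0.127). With a pseudocount of 0.1 neither MYC2 nor VSP1 was called (limma adjusted p = 0.0686 and 0.0671). LOX4 stood at 3.63, 0 and 9.42 in the Col and 3.2, 5.72 and 1.07 in the Ler apical cells against at most 1.76 in the basal cell, without a call (log2 difference 1.43, SE 0.54, limma adjusted p = 0.0590).

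Against the apical cell, JAZ1, JAZ3, JAZ12 and MYC3 were higher in the embryo proper and LOX4 was lower, 5 of 25 where 21.9% of all genes were called (10.2% higher, 11.7% lower). The medians were 0.29 over the 25 and -0.07 over all genes. JAZ3 was at 0.17, 0 and 0 FPKM in the Col and 6.97, 0 and 0.33 in the Ler apical cells, against 4.88 to 17.3 in the embryo proper (log2 difference 2.91, SE 0.56, limma adjusted p = 4.32e-04), so that only apical cell Ler 1 overlapped. MYC3 was at 0, 0.08 and 1.76 in the Col and 1.97, 0 and 0.02 in the Ler apical cells, all below the lowest embryo proper at 2.92 (log2 difference 1.63, SE 0.37, limma adjusted p = 0.00230). These calls of JAZ3 and MYC3 held whichever library was left out, but JAZ3 was not called within the Ler cross (limma adjusted p = 0.186) nor MYC3 within the Col cross (limma adjusted p = 0.0986).

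JAZ1 was at 0, 2.43 and 9.21 in the Col and 0.49, 0 and 2.13 in the Ler apical cells, against 3.22 to 39.8 in the embryo proper (log2 difference 1.83, SE 0.55, limma adjusted p = 0.0176). The call was lost without apical cell Col 1, embryo proper Ler 3 or embryo proper Col 3 (limma adjusted p = 0.0638, 0.0505 and 0.0713). JAZ12 went from 42.5 ± 19.9 to 76.3 ± 19.3 (SD, n = 6 each), with overlap (log2 difference 0.92, SE 0.33, limma adjusted p = 0.0457). LOX4 went from 0 to 9.42 in the apical cell to at most 0.92 in the embryo proper (log2 difference -1.66, SE 0.54, limma adjusted p = 0.0300). Leaving out 1 library ended the JAZ12 call for 16 of the 24 libraries (all but apical cell Ler 2 and Col 3, basal cell Ler 1 and Ler 3, embryo proper Col 2 and the 3 suspensors of the Ler mother) and the LOX4 call for 8 (apical cell Ler 1, Ler 2, Col 1 and Col 3, embryo proper Ler 1, Ler 3, Col 1 and Col 2), with limma adjusted p up to 0.143 and 0.103. JAZ1, JAZ12 and LOX4 were called in neither cross alone (limma adjusted p from 0.0556 to 0.411).

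Whether the contrast of the lineages changed with stage was tested directly, as the difference between embryo proper and suspensor minus that between apical and basal cell. A lower contrast at the later stage was called for 8 genes (LOX3, LOX4, AOC3, OPCL1, ACX1, JAZ1, JAZ5 and MYC2) and a higher one for 3 (MYC3, NINJA and TPL), 11 of 25 where 35.5% of all genes were called (16.2% lower, 19.3% higher). The medians were -0.71 over the 25 and 0.13 over all genes. JAZ1 changed most, with a contrast of 0.41 at the 2-celled and -3.94 at the 32-celled stage (difference -4.35, SE 0.77, limma adjusted p = 1.23e-04). MYC2 went from 1.24 to -1.29 (difference -2.53, SE 0.60, limma adjusted p = 0.00210), LOX4 from 1.43 to -1.49 (-2.92, SE 0.77, limma adjusted p = 0.00468) and ACX1 from -0.35 to -2.15 (-1.80, SE 0.33, limma adjusted p = 1.98e-04). AOC3 had a difference of -2.82 (SE 0.75, limma adjusted p = 0.00508). The calls of these 5 genes held in every alternative run, but the stage contrast was not fitted within a single cross. At the 32-celled stage JAZ1 and ACX1 were called within each cross, and LOX4, AOC3 and MYC2 within the Ler cross only.

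The other 6 calls did not hold in every alternative. LOX3 differed by -2.12 (SE 0.58, limma adjusted p = 0.00658), MYC3 by 1.63 (SE 0.53, limma adjusted p = 0.0194) and NINJA by 0.85 (SE 0.28, limma adjusted p = 0.0216). TPL, at 1.08 (SE 0.36, limma adjusted p = 0.0247), was lost without apical cell Ler 3, embryo proper Ler 2 or embryo proper Col 3 (limma adjusted p = 0.0516, 0.051 and 0.0512). JAZ5, at -2.61 (SE 0.90, limma adjusted p = 0.0263), was lost without apical cell Col 3, embryo proper Col 2, suspensor Col 1 or suspensor Col 3 (limma adjusted p = 0.0551, 0.0583, 0.0505 and 0.0532). OPCL1, at -1.92 (SE 0.74, limma adjusted p = 0.0458), was lost without any 1 of 15 libraries (all but apical cell Ler 2 and Col 1, basal cell Ler 1 and Col 2, embryo proper Ler 3 and Col 3, and suspensor Ler 2, Ler 3 and Col 2; limma adjusted p from 0.0523 to 0.0944). Without the 4 libraries of the other kit wording OPCL1, JAZ5, NINJA and MYC3 were not called (limma adjusted p = 0.302, 0.113, 0.164 and 0.0964).

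The reciprocal crosses swap the accessions of mother and father together, so the parts of the parents cannot be told apart. Between the crosses 3 genes were called, each in 1 cell type. In the apical cell MYC2 was at 20.9, 10.4 and 12.5 FPKM with a Col mother and at 1.01, 1.28 and 0.29 with a Ler mother, without overlap (log2 difference 3.05, SE 0.60, limma adjusted p = 0.0166), where 0.428% of all genes were called (0.0989% higher with a Col mother). No other cell type called MYC2 between the crosses. Compared with the mean of the other cell types, chosen after the data were seen, its difference in the apical cell was larger by 3.29 (SE 0.69) and was not called (limma adjusted p = 0.0590). The apical call was lost without apical cell Ler 1, Ler 3 or Col 1 (limma adjusted p = 0.0665, 0.0716 and 0.082), with a pseudocount of 0.1 (0.0704) and when only apical cell libraries were fitted (0.172).

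MYC2 (chr1:11798119-11801407, minus strand) shares 3241 of its 3289 exonic bases with the locus AT1G32630 on the opposite strand, and the counting is not stated to use strand, so reads of the 2 loci cannot be told apart on sequence alone. AT1G32630 was at 4.51, 6.12 and 10.1 FPKM in the Col and 8.77, 13.9 and 9.45 in the Ler apical cells, overlapping between the crosses. AT1G32630 was at 3.16 to 10.3 FPKM in the basal cell, 6.39 to 10.6 in the embryo proper and 4.87 to 51.3 in the suspensor. In the suspensor both loci were highest in Ler 2, at 51.3 and 56.5. How reads were divided between them was not tested.

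In the basal cell VSP2 was listed at 0 in the 3 Col libraries and at 18.3, 25.2 and 3.28 in the Ler libraries (log2 difference of FPKM + 1 -3.69, SE 0.60, limma adjusted p = 5.83e-04), where 7.06% of all genes were called (3.10% lower with a Col mother). The call was lost when only basal cell libraries were fitted (limma adjusted p = 0.0911). VSP1, its neighbour on chromosome 5 (chr5:8500468-8502224 for VSP2 and chr5:8507590-8509201 for VSP1), overlapped between the crosses and was not called. VSP2 and VSP1 share at most 0.37% of their 50-base words.

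In the suspensor AOC3 was at 15.2, 0 and 2.95 with a Col mother and 73.0, 33.9 and 49.2 with a Ler mother, without overlap (log2 difference -3.66, SE 0.75, limma adjusted p = 0.00647), where 4.20% of all genes were called (1.3% lower with a Col mother). The call was lost with library weights and when only suspensor libraries were fitted (limma adjusted p = 0.526 and 0.551). Another 6 genes had an unadjusted p under 0.05 there without being called: AOS, OPR3, JAZ3, MYC4 and NINJA were lower and JAZ11 higher with a Col mother. JAZ3 and OPR3 were at 0 in all 3 Col suspensors, and JAZ3 was also at 0 in suspensor Ler 1. These differences may be read only as levels, since their limma adjusted p ran from 0.0630 to 0.236. The share of all genes at an unadjusted p under 0.05 was not computed.

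In the embryo proper 0 of the 25 genes were called between the crosses by limma, 0 had an unadjusted p under 0.05, and 0% of all genes were called. Taken over all cell types, 0 of 25 were called by limma, where 0.791% of all genes were called. Of all genes 0.401% were called higher and 0.390% lower with a Col mother. An unadjusted limma p under 0.05 was reached by 4 of the 25 (JAZ3, AOC3, NINJA and VSP2). The share of all genes at that unadjusted threshold was not computed.

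**Figure D4:**
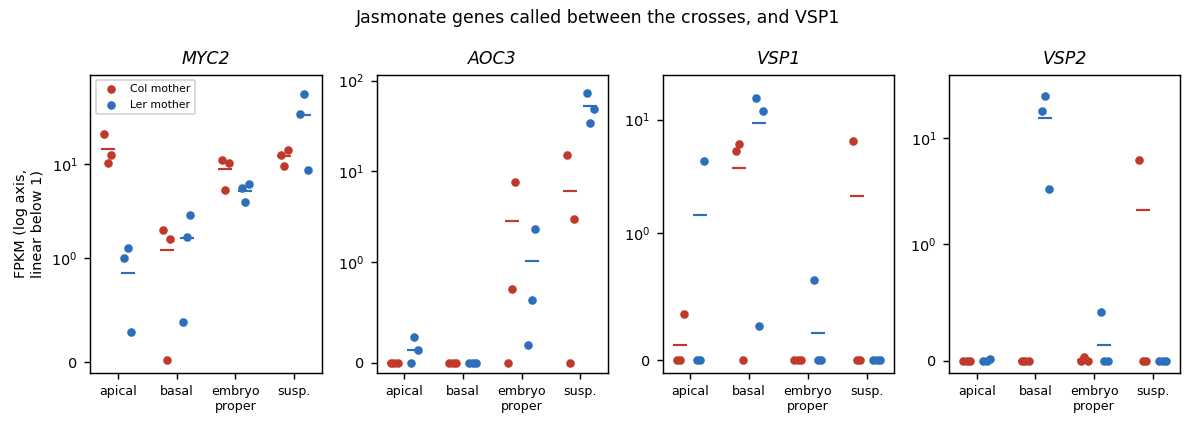
FPKM of MYC2, AOC3, VSP1 and VSP2 in every library (y axis, logarithmic above 1 and linear below) by cell type (x axis) and mother (colour), with a bar at the mean of 3 libraries. MYC2 separates the crosses in the apical cell, AOC3 in the suspensor and VSP2 in the basal cell.

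A single embryo proper library stood apart for jasmonate genes. Col mother replicate 3 held the highest of the 6 embryo proper values for 12 of the 25 tested genes, where it did so for 18.4% of all 18206 genes. JAZ1 was at 39.8 FPKM there and at most 8.68 in the other 5, JAZ5 at 8.88 against at most 1.94, AOC3 at 7.66 against at most 2.31 and LOX3 at 5.68 against at most 0.19. The same library was highest for 6 of 10 touch and early wounding genes, with WRKY40 at 8.15 against at most 0.28, WRKY33 at 8.24 against 2.15, TCH3 at 14.2 against 3.77 and RBOHD at 4.28 against 0.27. Without it, limma called 10 jasmonate genes lower and 4 higher in the embryo proper against the suspensor. This library was singled out after its values were seen.

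**Figure D5:**
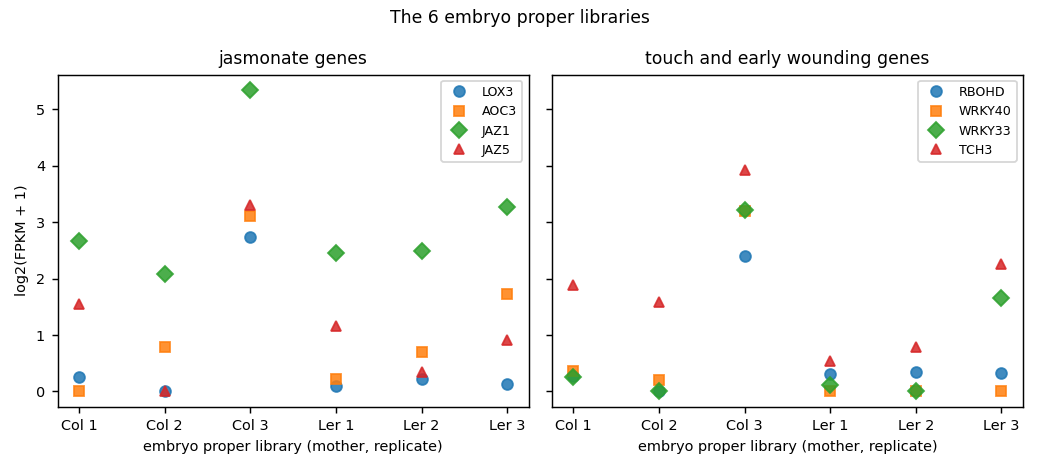
Level of 4 jasmonate genes (left) and 4 touch and early wounding genes (right) as log2(FPKM + 1) on the y axis in each of the 6 embryo proper libraries on the x axis. Col 3 is the highest library for all 8 genes, with JAZ1 at 39.8 FPKM and TCH3 at 14.2 FPKM.

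The wider pathway was followed through 54 further genes for lipid release, beta-oxidation, hormone turnover, other transcription factors, corepressors and responses, of which 36 were tested. Between embryo proper and suspensor 17 of the 36 were lower and 6 higher in the embryo proper, against 22.4% and 28.5% of all genes. OPR2, a relative of OPR3, was at 0.79 to 7.04 FPKM in the embryo proper and 29.8 to 181 in the suspensor (log2 difference -4.68, limma adjusted p = 2.06e-07). JAV1, a repressor of jasmonate defence, had a log2 difference of -3.61 and ACX3, another acyl-CoA oxidase, of -3.05. FAD8, a plastid fatty acid desaturase, was at 14.7 to 22.7 in the embryo proper and at most 17.3 in the suspensor (log2 difference 3.19, limma adjusted p = 3.55e-05), and the TPL relatives TPR1 and TPR2 were higher by 2.05 and 1.38. The other two relatives did not follow them, with TPR3 at 7.63 to 10.3 in the embryo proper and 11.4 to 19.7 in the suspensor (log2 difference -0.77, limma adjusted p = 0.0108) and TPR4 not called (log2 difference -0.12, limma adjusted p = 0.752).

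From basal cell to suspensor 12 of the 36 rose and 9 fell, against 18.9% and 26.0% of all genes. JAM1, a bHLH factor that competes with MYC2, rose by 2.69 on the log2 scale, OPR2 by 2.29 and the locus AT1G70480 by 1.98, while NAC019, a MYC2 target in leaves, was at 3.56 to 23.5 FPKM in the basal cell and at most 0.08 in the suspensor (log2 difference -3.41, limma adjusted p = 1.38e-07). FAD8 and the thionin gene THI2.1 had log2 differences of -3.01 and -2.36. Between apical and basal cell 6 were higher and 6 lower, against 11.8% and 12.2% of all genes, among them the histone deacetylase HDA6 at 101 to 130 FPKM in the apical and 40.8 to 67.1 in the basal cell (log2 difference 1.21, limma adjusted p = 3.92e-04). AT5G05600 and JAM3 were higher by 1.94 and 1.54, and JAV1, ACX2 and the thiolase gene KAT2 had log2 differences of -2.29, -2.03 and -1.31. Between apical cell and embryo proper 1 rose, TPR4 (1.49), and 10 fell, with AT5G05600, ACX3 and OPR1 at log2 differences of -3.57, -2.16 and -1.90, where 10.2% of all genes were higher and 11.7% lower. The stage contrast was called for 13 of the 36, 11 lower and 2 higher, against 16.2% and 19.3% of all genes.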

How the data were processed

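Messenger RNA from hybrid embryo cells was captured on Dynabeads and amplified with a SMART-Seq ultra low input kit, per the labels' protocols. The deposited files hold FPKM values that the authors made with TopHat2 2.1.1 and RSEM on TAIR10, per the submitters' processing notes, 1 file for each of 24 libraries, with 2 decimals and no depth or coordinates. FPKM values were transformed as log2(FPKM + 1), which understates changes of low genes. Genes at 1 FPKM or more in at least 3 libraries were kept (18206 of 32399). A fit with limma 3.58.1 (R 4.3.3; eBayes with trend) estimated 8 group means from 3 libraries each, and p-values were adjusted by Benjamini-Hochberg over all genes tested in each of 10 contrasts, with a threshold of 0.05. "Called" means past that threshold. The members and gene lists were chosen with earlier results of these data known. The expression of all 33 members is reported. Of the 54 further pathway genes, those named have the largest log2 change among called genes with a mean of at least 10 FPKM in the higher group, up to 3 in each direction. Alternatives changed the pseudocount, filter, scaling, weights, libraries and replicate block. Tables were handled in Python 3.11.15. Promoters were read from the RefSeq TAIR10.1 genome for 32 members, and that of the other is not reported here.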

Additional observations from a re-analysis of the deposited data

Results flagged for a closer look

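Single libraries far from the other 5 of their cell type were found for 17 of 76 sets of a jasmonate gene and a cell type, with Dixon's test for 6 libraries. The test's rate of 1 in 20 holds for normally distributed values. Here it was applied to FPKM of both crosses together, often skewed or with zeros, so no chance rate can be given. The share of such sets among all genes was not computed. Embryo proper Col 3 was high for 4 genes, with LOX3 at 5.68 FPKM, AOC3 at 7.66, JAZ1 at 39.75 and JAZ5 at 8.88. Suspensor Ler 1 was also high for 4, with OPCL1 at 153.32, JAZ8 at 7.87, JAZ10 at 39.91 and JAZ12 at 315.68. JAZ8 was at 0 in the other 23 libraries. Suspensor Ler 2 was high for OPR3 at 17.79 and COI1 at 36.02, and suspensor Col 1 for VSP1 at 6.44 and VSP2 at 6.26, each at 0 in the other 5 suspensors. Basal cell Col 3 was low for OPR3, listed at 0, and high for JAZ11 at 45.98. Apical cell Col 3 was high for JAZ1 at 9.21, apical cell Ler 1 was high for JAZ3 at 6.97, and embryo proper Ler 3 was low for AOC4 at 1.69.

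The contrast between the lineages differed between the stages for 11 genes by limma's test of the difference. The later contrast was lower for JAZ1 (log2 -4.35), LOX4 (-2.92), AOC3 (-2.82), JAZ5 (-2.61), MYC2 (-2.53), LOX3 (-2.12), OPCL1 (-1.92) and ACX1 (-1.80). It was higher for MYC3 (1.63), TPL (1.08) and NINJA (0.85).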

How the results depend on the processing

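Of 50 calls of a jasmonate gene in a contrast, 15 held in every alternative run for that contrast and 35 held whichever library was left out. The stage contrast was not fitted within a single cross. The number of jasmonate genes called moved by over 1.5 times in these cases. A pseudocount of 0.1 gave 1 in place of 3 between apical and basal cell, 3 in place of 5 between embryo proper and apical cell, and between the crosses 0 in place of 1 in the apical cell and suspensor and 2 in place of 1 in the basal cell. A pseudocount of 5 gave 2 in place of 1 between the crosses in the suspensor. No filter gave 3 in place of 5 between embryo proper and apical cell and 2 between the crosses in the basal cell. Library weights gave 3 between the crosses in the basal cell and 0 in the suspensor. Quantile normalization, the kit wording as covariate and the fit without its 4 libraries each gave 3 between the crosses in the suspensor. Fitting only the cell types compared gave 9 in place of 14 between suspensor and basal cell, and between the crosses 0 in the apical cell, 2 in the basal cell, VSP2 not among them, and 0 in the suspensor. Within the Col cross the counts were 1 between apical and basal cell, 8 in place of 14 between embryo proper and suspensor, 1 between embryo proper and apical cell, and 9 between suspensor and basal cell. Within the Ler cross they were 1 between apical and basal cell and 1 between embryo proper and apical cell. MYC2 turned to -0.43 between apical and basal cell within the Ler cross and VSP2 to 0.95 between suspensor and basal cell within the Col cross. The cause was not tested.

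Leaving out 1 library gave 1 to 4 calls between apical and basal cell, 12 to 15 between embryo proper and suspensor, 2 to 5 between embryo proper and apical cell, 13 to 17 between suspensor and basal cell and 9 to 13 for the stage contrast. Between the crosses it gave 0 to 1 in the apical cell, 1 in the basal cell, 0 in the embryo proper, 1 to 4 in the suspensor and 0 to 1 over all cell types.

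Over 84 pairs of libraries with the same replicate number in different groups the median correlation of deviations was 0.005 (-0.178 to 0.303, above 0.1 in 3). For 168 pairs with other numbers it was -0.002 (-0.266 to 0.264, above 0.1 in 3). These pairs pool stages and crosses, so the check cannot exclude pairing of cells from the same embryos. With the number as a replicate block, which gives each number a shared effect over all groups, each contrast had the same count of calls as without it. These were 3, 14, 5 and 14 between cell types and 11 for the stage contrast.

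Rescaling to TPM moved the median of all genes to 0.14 between apical and basal cell and to -0.16 between embryo proper and apical cell, and no called jasmonate gene changed direction under any scaling. The read depth is unknown, so no limit can be given for genes listed at 0. Replicates correlated at 0.772 to 0.982, and the median replicate SD on the log2 scale was 0.224 and 0.265 in the embryo proper but 0.569 and 0.749 in the suspensor. Since the main fit shares a single spread over all groups, p-values of suspensor contrasts draw also on groups of smaller SD.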
